A study of Homo sapiens with 8 samples.

Results

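The genes described here are 9 members of the TGF-beta, BMP and ID system: the ligand genes TGFB1, TGFB2 and BMP4, the inhibitory SMAD genes SMAD6 and SMAD7, and the inhibitor of DNA binding genes ID1, ID2, ID3 and ID4. They were taken by gene symbol from the array annotation, and 11 of the 24531 probes belonged to them. RNA was measured on 8 Illumina bead arrays from the established ovarian carcinoma lines SK-OV-3 and TOV-21G. In each line 2 arrays came from cells given a scrambled control siRNA and 2 from cells given an siRNA against CSE1L, the export receptor for importin alpha, all 72 h after transfection. The siRNA sequence and any measure of CSE1L protein were not given in the sources used here, each condition rests on 1 line and 2 numbered experiments, and the labels do not say that these were separate cultures. The p-values therefore measure only the spread between these arrays, which may be technical.

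TGF-beta and BMP ligands bind paired receptor kinases at the cell surface, which phosphorylate receptor SMADs. These join SMAD4 and move into the nucleus. The BMP branch is known for switching on the ID genes, whose proteins lack a DNA-binding region and hold E proteins away from DNA, and both branches induce SMAD6 or SMAD7, which feed back to block the receptors. TGF-beta is known as a brake on the growth of normal epithelium, and carcinoma cells, ovarian ones among them, often respond to it differently.

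By RefSeq on GRCh38.p14, ID1 lies at chr20:31605289-31606510, ID3 at chr1:23557926-23559501, SMAD6 at chr15:66702236-66782849 and BMP4 at chr14:53949736-53956891. The 250 bases upstream of the start of ID1, ID3 and SMAD6 are shown because ID3 and SMAD6 differed between the lines before silencing and ID1, likewise a known SMAD target, did not pass that test. Capitals mark matches on either strand to 3 motifs: GTCTAGAC, the SMAD-binding element, CAGAC, the shorter SMAD box, and GGCGCC, a GC-rich element of BMP targets. No match of one overlapped a match of another.
ID1 (chr20:31605039-31605288, plus strand): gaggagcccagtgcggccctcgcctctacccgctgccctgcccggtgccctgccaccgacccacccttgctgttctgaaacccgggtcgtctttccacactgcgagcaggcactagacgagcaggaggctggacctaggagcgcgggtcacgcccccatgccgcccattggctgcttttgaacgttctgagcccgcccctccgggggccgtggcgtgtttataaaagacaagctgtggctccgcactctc
ID3 (chr1:23559502-23559751, minus strand): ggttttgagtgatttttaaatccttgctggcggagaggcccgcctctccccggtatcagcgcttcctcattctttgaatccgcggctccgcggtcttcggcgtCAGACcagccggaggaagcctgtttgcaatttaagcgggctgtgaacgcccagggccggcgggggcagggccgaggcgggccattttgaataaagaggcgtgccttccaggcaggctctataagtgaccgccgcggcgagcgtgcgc
SMAD6 (chr15:66701986-66702235, plus strand): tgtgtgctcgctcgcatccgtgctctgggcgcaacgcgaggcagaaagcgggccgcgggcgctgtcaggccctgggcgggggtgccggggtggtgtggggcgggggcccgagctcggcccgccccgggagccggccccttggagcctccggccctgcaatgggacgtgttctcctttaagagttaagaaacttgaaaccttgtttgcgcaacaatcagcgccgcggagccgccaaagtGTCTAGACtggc
SMAD6 held 1 match to the SMAD-binding element, beginning 12 bases before the start, and this element was present in 0.182% of 35116 RefSeq promoter windows of the same length. ID3 held 1 CAGAC box, beginning 147 bases before the start, as did 38% of the windows at any place. ID1 held 0 matches to any of the 3 motifs, and GGCGCC, found in 16.4% of the windows, was in none of the 3. A match describes the letters in the window and does not show binding, and a count of 0 says nothing about sequence outside these 250 bases.

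The arrays were alike in quality, with 9206 to 9820 probes detected per array (detection p below 0.01 against the negative control beads) and median signals of 156 to 202. CSE1L itself had log2 intensities of 12.04 and 12.56 in SK-OV-3 control arrays and 10.51 and 8.99 after silencing, and of 13.02 and 11.65 against 8.80 and 7.72 in TOV-21G. The silenced arrays lay below the controls in each line, and the change passed the test in TOV-21G (log2 change -4.08, limma adjusted p = 0.0257) and not in SK-OV-3 (-2.55, adjusted p = 0.262). The TOV-21G call of CSE1L was lost without TOV-21G control replicate 1 (adjusted p = 0.162), control replicate 2 (0.0767) or silenced replicate 2 (0.112). The line labels were checked against markers. ERBB2, amplified in SK-OV-3, had mean log2 intensities of 15.15 in SK-OV-3 control and 11.73 in TOV-21G control. Of 4 epithelial genes KRT8 and KRT18 were detected on all 8 arrays and EPCAM on 0. KRT19 was detected on both arrays of each SK-OV-3 group and on 1 array of each TOV-21G group. Its mean log2 intensity was 12.78 in SK-OV-3 control and 6.44 in TOV-21G control. Of 6 fibroblast genes 4 were detected on no array, COL1A1 on all 8, and DCN only on the 4 arrays of TOV-21G. The endothelial genes PECAM1 and CDH5 and the leukocyte genes PTPRC and CD3D were detected on 0 arrays, CD14 on both silenced arrays of each line, 1 TOV-21G control array and 0 SK-OV-3 control arrays, and CD68 on all 8. The part of any other cell type in the results was not tested.

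Of the 9 genes, ID1, ID3, SMAD6 and BMP4 were detected well enough to be tested, and ID2, ID4, SMAD7, TGFB1 and TGFB2 were detected on 0 of 8 arrays. A probe entered the test when detected on at least 2 arrays, which kept 6 of the 11 probes and 9377 genes and unnamed probes overall. ID2, an ID protein that also binds pocket proteins, had signals of 114 to 162 over the 8 arrays, and its lowest detection p was 0.123. ID4, the ID protein with neural roles in the mouse, had signals of 105 to 142. The inhibitory SMAD gene SMAD7 had signals of 109 to 157. These 3 probes gave no array that stood clear of the negative control beads, so a change in their transcripts could not be seen.

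The 2 TGF-beta ligand probes were also below the detection limit, but TGFB1 came near it in SK-OV-3 and on TOV-21G silenced replicate 1. Its signals were 216 and 184 in SK-OV-3 control, 183 and 177 in SK-OV-3 silenced, 135 and 168 in TOV-21G control, and 211 and 173 in TOV-21G silenced arrays. The detection p of TGFB1 was 0.0135 and 0.0256 in the SK-OV-3 controls and 0.316 and 0.221 in the TOV-21G controls. On the silenced arrays it was 0.0120 and 0.0451 in SK-OV-3 and 0.0451 and 0.162 in TOV-21G. No difference is given because all 8 arrays were below the limit. TGFB2 had signals of 129 to 186 and a lowest detection p of 0.0917.

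**Figure D1:**
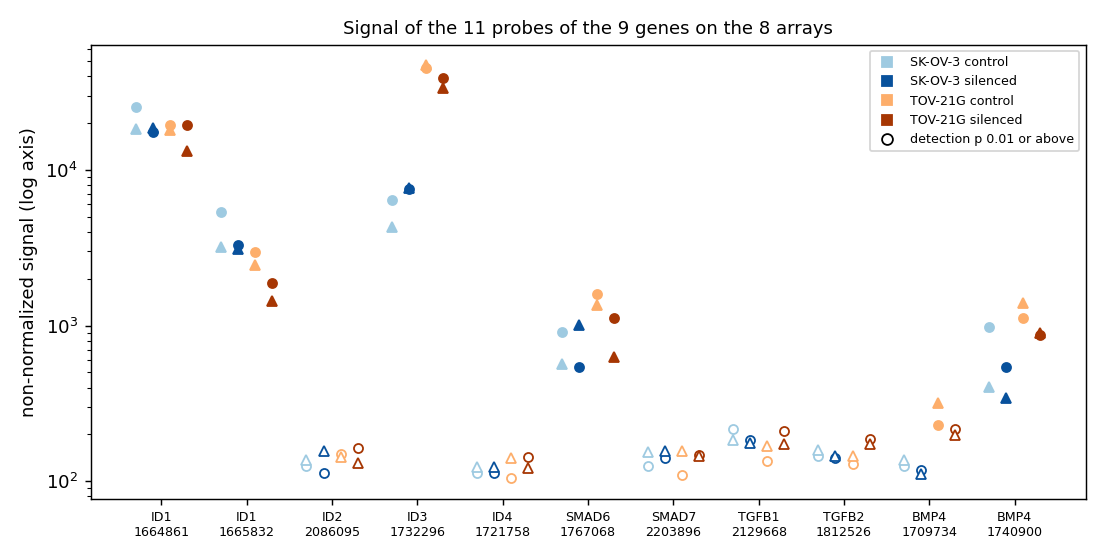
Non-normalized signal (log axis) of the 11 probes of the 9 genes on each of the 8 arrays, coloured by group, with circles for replicate 1, triangles for replicate 2 and open symbols where the detection p was 0.01 or above. The ID2, ID4, SMAD7, TGFB1 and TGFB2 probes lie between 105 and 216 with open symbols only, and brightness is not comparable between probes.

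Before any silencing the lines differed in ID3 and SMAD6. ID3, an ID protein induced by BMP signalling, was 9.38-fold higher in TOV-21G control cells than in SK-OV-3 control cells, and SMAD6, the feedback inhibitor of the BMP branch, was 2.17-fold higher. ID1, the other BMP-induced ID gene tested, did not pass, and BMP4, the ligand, lay higher in TOV-21G without passing the test. The 2 of 4 tested members called in this comparison stand beside 33.8% of all 9377 genes (17.1% higher and 16.7% lower in TOV-21G; 44% at an unadjusted p under 0.05), so the members' share is read against lines that differed in much of what was measured. The lines did not overlap, with TOV-21G higher, for 31.6% of all genes, and with TOV-21G lower for 36.9%.

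ID3 had log2 intensities of 12.32 and 12.21 on the SK-OV-3 control arrays and 15.60 and 15.38 on the TOV-21G control arrays. The lines did not overlap, and the gap between them was wider than the spread of either pair of replicates. The difference was 3.23 (SE 0.23, 95% interval 2.70 to 3.76, n = 2 arrays per group, limma adjusted p = 3.11e-05). It stayed between 3.12 and 3.35 and past the threshold in every alternative run.

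SMAD6 had log2 intensities of 9.42 and 8.93 in SK-OV-3 control and 10.47 and 10.12 in TOV-21G control. The groups did not overlap, but their replicates were spread more widely than those of ID3. The difference was 1.12 (SE 0.34, 95% interval 0.34 to 1.90, limma adjusted p = 0.0361). The call was lost without any 1 of the 4 control arrays: the adjusted p was 0.0558 and the difference 1.35 without SK-OV-3 control replicate 1, 0.183 and 0.87 without SK-OV-3 control replicate 2, 0.157 and 0.95 when TOV-21G control replicate 1 was left out, and 0.0692 and 1.29 when its replicate 2 was. It was also lost with no detection filter (adjusted p = 0.0550).

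ID1 had log2 intensities of 14.38 and 14.33 in SK-OV-3 control and 14.42 and 13.96 in TOV-21G control. The ranges overlapped, with a difference of -0.16 (SE 0.29, 95% interval -0.82 to 0.50, limma adjusted p = 0.702). A second ID1 probe gave 12.07 and 11.77 against 11.46 and 11.005. On that probe the TOV-21G controls lay below the SK-OV-3 controls, by 0.69 on the log2 scale, which did not pass over all probes (log2 difference -0.69, adjusted p = 0.0950). The 95% intervals of the ID1 probes ended at 0.50 and -0.05, below the start of the ID3 interval at 2.70.

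BMP4 had log2 intensities of 9.53 and 8.28 in SK-OV-3 control and 9.90 and 10.16 in TOV-21G control on its probe with the higher mean. The groups did not overlap, although the SK-OV-3 replicates lay over 1 unit apart and the difference of 1.12 (SE 0.53, 95% interval -0.09 to 2.34) did not pass (limma adjusted p = 0.138). It was 0.50 without SK-OV-3 control replicate 2 and 1.73 without SK-OV-3 control replicate 1, neither called. On the values normalized by the authors it was 0.94 with an adjusted p of 0.0480. The other BMP4 probe, annotated to the same transcript, was detected on both TOV-21G control arrays, at 6.67 and 7.41, and on no other array. It was at least 1.28-fold higher in TOV-21G control than in SK-OV-3 control. Such a bound sets the detected level against the lowest detected signal of the arrays where the probe was not detected. The limma adjusted p over all probes, 0.000767, belongs to the fitted difference of 2.10 and not to the bound. The probe passed the detection filter only through the 2 TOV-21G control arrays, so the filter and this call are not independent. The probes of BMP4 thus lay in the same direction and differed in their call.

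**Figure D2:**
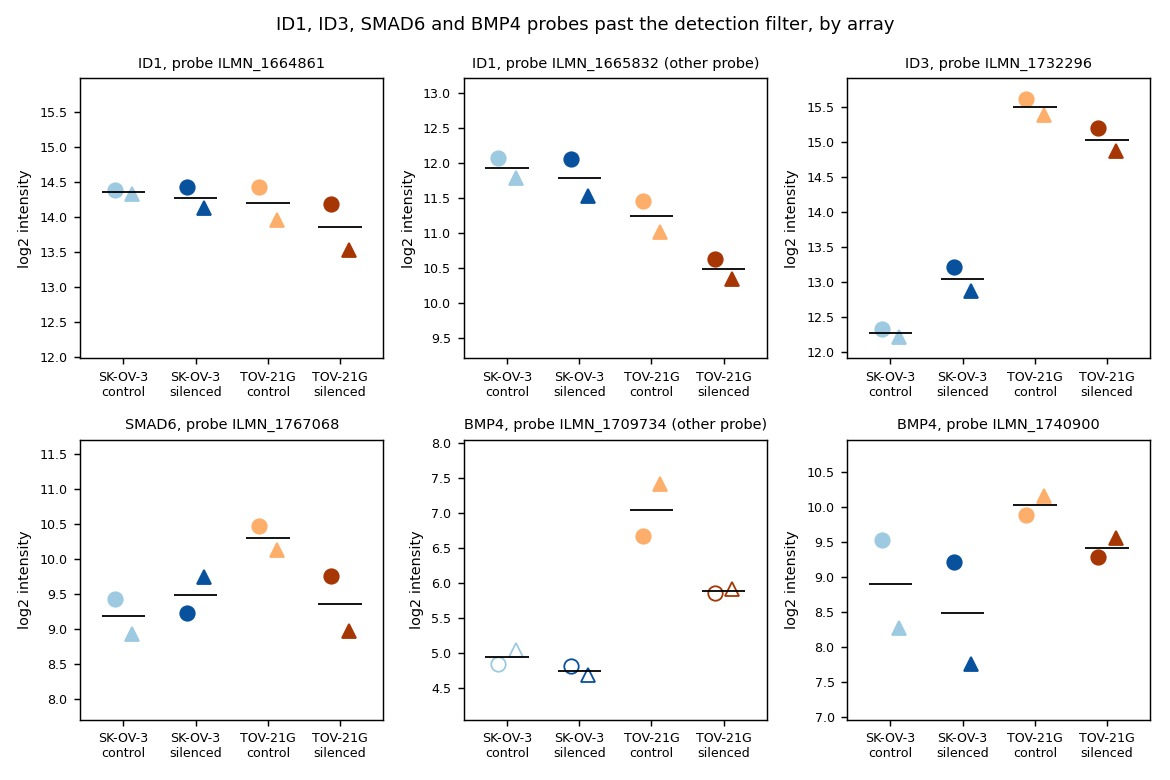
Log2 intensity, background corrected and quantile normalized, of the 6 tested probes of ID1, ID3, SMAD6 and BMP4 on each array (circle, replicate 1; triangle, replicate 2; line, group mean; open symbol, detection p of 0.01 or above). ID3 lies at 12.21 to 13.22 on the SK-OV-3 arrays and at 14.86 to 15.60 on the TOV-21G arrays.

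After CSE1L silencing 0 of the 4 tested members passed the threshold in SK-OV-3, in TOV-21G, in the mean of both lines or in the difference between the lines (limma). Over all genes 0.0107% were called in SK-OV-3, 3.17% in TOV-21G, 2.14% in the mean (0.917% higher and 1.23% lower) and 0% in the difference. At an unadjusted p under 0.05, ID3 passed in SK-OV-3, SMAD6 in TOV-21G, and both in the difference, where 10% of all genes did so in SK-OV-3, 19.9% in TOV-21G, 20.6% in the mean and 10.1% in the difference. The count of 0 held in each of the 4 comparisons under every alternative run, each left-out array included. Silenced and control arrays did not overlap in SK-OV-3 for 21.1% of all genes higher and 21.2% lower, and in TOV-21G for 24.1% higher and 24.8% lower. In cells in culture a lower signal can come from fewer cells that express a gene or from less RNA per cell, and these cannot be told apart here.

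ID3 lay on opposite sides of its controls in the lines, without passing the test. The SK-OV-3 control arrays had 12.32 and 12.21 and the silenced ones 13.22 and 12.87. In TOV-21G controls stood at 15.60 and 15.38 and silenced arrays at 15.20 and 14.86. Every silenced array lay above the controls in SK-OV-3 and below them in TOV-21G, an order found in 2.74% of all genes. The log2 change was 0.78 in SK-OV-3 (SE 0.23, 95% interval 0.24 to 1.31, limma adjusted p = 0.318) and -0.47 in TOV-21G (SE 0.23, interval -1.0 to 0.07, adjusted p = 0.318). The changes differed by -1.25 (SE 0.33, interval -2.00 to -0.49), which did not pass over all genes (unadjusted p = 0.00532, adjusted p = 0.256). These changes share their control arrays with the comparison of the lines before silencing, so they are not separate evidence on the line difference of ID3.

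SMAD6 had log2 intensities of 9.22 and 9.74 in SK-OV-3 silenced and 9.75 and 8.97 in TOV-21G silenced arrays. In TOV-21G both lay below the controls at 10.47 and 10.12, a change of -0.94 (SE 0.34, 95% interval -1.72 to -0.15, limma adjusted p = 0.182). In SK-OV-3 the silenced arrays lay on either side of the control at 9.42, with a change of 0.31 (SE 0.34, interval -0.48 to 1.09, adjusted p = 0.832). The changes differed by -1.24 (SE 0.48, interval -2.35 to -0.13, adjusted p = 0.431). With 1 array left out the TOV-21G change ranged from -1.34 (without silenced replicate 1) to -0.54 (without silenced replicate 2). The SK-OV-3 change ranged from 0.05 (without silenced replicate 2) to 0.57 (without silenced replicate 1).

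ID1 had log2 intensities of 14.42 and 14.13 in SK-OV-3 silenced and 14.19 and 13.53 in TOV-21G silenced arrays. Silenced and control arrays overlapped in both lines. The changes were -0.08 in SK-OV-3 (95% interval -0.74 to 0.58, limma adjusted p = 0.955) and -0.33 in TOV-21G (interval -0.99 to 0.33, adjusted p = 0.590), each with an SE of 0.29. On the second ID1 probe the TOV-21G arrays went from 11.46 and 11.005 to 10.63 and 10.33 without overlap, a change of -0.75 (SE 0.28, adjusted p over all probes 0.195). That probe had 12.05 and 11.52 in SK-OV-3 silenced arrays, a change of -0.14 (adjusted p = 0.925).

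Without passing the test, BMP4 was lower in each silenced array than in its same-numbered control array, an order not counted over all genes. Its log2 intensities were 9.22 and 7.77 in SK-OV-3 silenced and 9.29 and 9.56 in TOV-21G silenced arrays, and the differences within an experiment were -0.32, -0.51, -0.61 and -0.60. In SK-OV-3 replicate 2 lay below replicate 1 by over 1 unit in both conditions. Without regard to the experiment number the changes were -0.41 in SK-OV-3 (SE 0.53, limma adjusted p = 0.859), -0.60 in TOV-21G (SE 0.53, adjusted p = 0.594) and -0.51 in the mean (SE 0.37, 95% interval -1.37 to 0.35, adjusted p = 0.487). The mean was -0.87 without SK-OV-3 silenced replicate 1 and -0.14 without SK-OV-3 silenced replicate 2. With the experiment as a replicate block it had an adjusted p of 0.0701. On the other BMP4 probe the TOV-21G arrays went from 6.67 and 7.41 to 5.86 and 5.92, the latter below detection, which is at least 1.46-fold lower and did not pass over all probes (adjusted p = 0.0694). That probe entered the test only through the TOV-21G control arrays, where it was high, so its fall is not independent of the filter.

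**Figure D3:**
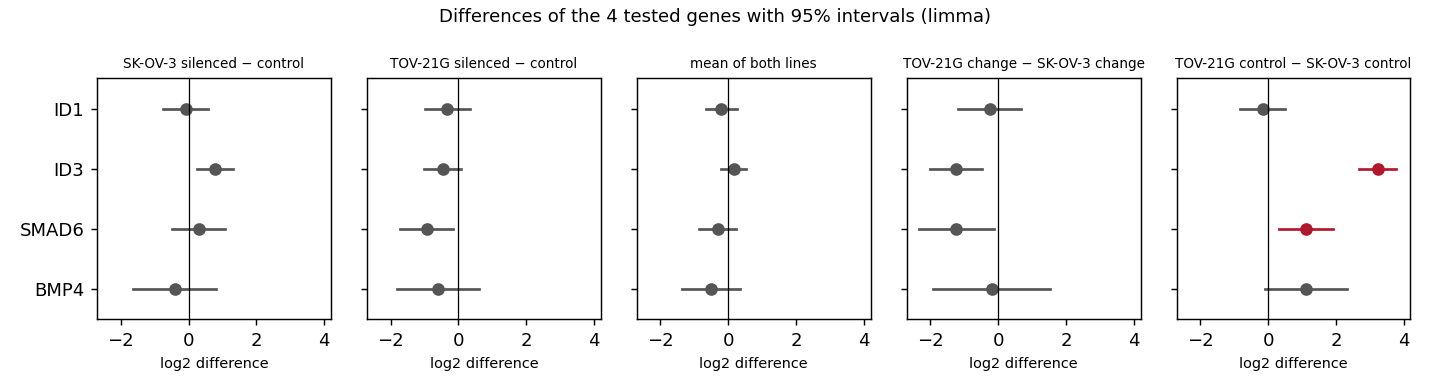
Log2 differences of ID1, ID3, SMAD6 and BMP4 (points) with 95% intervals from the limma fit (lines) in the 5 comparisons, in red where the adjusted p was below 0.05. The 2 red intervals are ID3 and SMAD6 in TOV-21G control against SK-OV-3 control, and the ID3 interval lies above 0 in SK-OV-3 after silencing without passing the test.

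Around the members stood a wider list of 61 pathway genes, chosen with earlier results of these data known, of which 34 were tested, 23 did not pass the detection filter and 4 were not analysed here. Among the genes below the filter were TGFBR1, the type I TGF-beta receptor, BMPR2, the type II BMP receptor, and the inhibin and activin subunit genes INHA, INHBA and INHBB. Between the control lines 7 of the 34 were called higher in TOV-21G and 5 lower, beside 17.1% higher and 16.7% lower over all genes. The median difference of the list was -0.22 and that of all genes -0.07.

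Several genes of the pathway were seen in TOV-21G alone among the control arrays. GDF15, a stress-induced ligand of the family, was below detection on both SK-OV-3 control arrays (6.11 and 5.77) and at 13.35 and 13.84 on the TOV-21G control arrays, at least 120-fold higher (limma adjusted p = 1.81e-06). NOG, the BMP antagonist noggin, was at least 4.12-fold higher (adjusted p = 3.91e-05), and ENG, the co-receptor endoglin, at least 3.66-fold higher (adjusted p = 3.39e-05). ATOH8, a transcription factor induced by BMP signalling, was at least 5.65-fold higher (adjusted p = 0.00282). GDF15, NOG and ENG passed the detection filter only through TOV-21G arrays, where they were high, so the filter and their calls are not independent. The same holds for the count of wider genes called higher in TOV-21G, which includes them. The bounds of all these genes hold for the main processing only. Over the alternatives the log2 differences of GDF15, NOG, ENG and ATOH8 came as low as 5.69, 1.52, 1.41 and 1.81, against bounds of 6.91, 2.04, 1.87 and 2.50, and each stayed past the threshold.

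Other members of the list were expressed in both lines at different levels. LTBP4, which tethers latent TGF-beta to the matrix, was higher in TOV-21G (3.48, SE 0.28, limma adjusted p = 5.74e-05), as was the receptor SMAD gene SMAD3 (1.94, SE 0.25, adjusted p = 0.000759). TAGLN, an actin-binding protein induced by TGF-beta, was at 13.16 and 12.40 in SK-OV-3 control and 8.30 and 8.17 in TOV-21G control arrays (-4.54, SE 0.29, adjusted p = 1.66e-05). FSTL3, an activin antagonist, was lower in TOV-21G (-3.02, SE 0.33, adjusted p = 2.82e-04), as was the ligand gene BMP2 (-2.05, SE 0.31, adjusted p = 0.00156). BAMBI, a pseudoreceptor that blocks signalling, differed by -2.62 (SE 0.56, adjusted p = 0.00892) and was detected on 1 of the 2 TOV-21G control arrays. Without SK-OV-3 control replicate 1 the BAMBI difference was -2.15 and not called (adjusted p = 0.0640), and with background left uncorrected or on the authors' values it was -1.43 and -1.20. It was also -1.72, still called, without TOV-21G control replicate 2. SMAD4, the shared partner of the receptor SMADs, differed by -1.03 (SE 0.33, adjusted p = 0.0459). The SMAD4 call was lost with no detection filter, with the replicate block (adjusted p = 0.0621) and without any 1 array of SK-OV-3 or either TOV-21G control array (adjusted p of 0.0621 to 0.218).

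After silencing 1 of the 34 wider genes passed in TOV-21G and 0 in SK-OV-3, beside the 3.17% of all genes in TOV-21G (2.08% lower) and 0.0107% in SK-OV-3. The called gene was AMH, the ligand anti-Müllerian hormone, which fell in TOV-21G from 8.44 and 8.28 to 7.43 and 7.26 (-1.01, SE 0.21, limma adjusted p = 0.0485). In SK-OV-3 AMH lay at 8.16 and 8.06 in control and 7.53 and 7.20 in silenced arrays (-0.75, SE 0.21, adjusted p = 0.301). Averaged over the lines, AMH fell by 0.88 (log2 scale, SE 0.15, adjusted p = 0.0367). Its silenced arrays lay below the controls in each line. Of all genes, 21.2% showed that order in SK-OV-3 and 24.8% in TOV-21G, and the share with it in both lines was not counted. The TOV-21G call of AMH was lost without any 1 of the 8 arrays (adjusted p of 0.0727 to 0.251), as was the call of the mean (0.0569 to 0.148). The TOV-21G call was lost under 6 of the 8 other settings as well (0.0528 to 0.117), and that of the mean on the authors' values (0.0534). AMH changed by -0.65 with no background correction and by -0.59 on the authors' values in TOV-21G, and by -0.55 and -0.48 in the mean.

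With the experiment as a replicate block, 3 wider genes passed in TOV-21G: AMH (adjusted p = 0.0372), FSTL3 (1.08, adjusted p = 0.0473) and ATOH8 (-0.86, adjusted p = 0.0499). Calls rose over all 9377 genes as well, from 297 in TOV-21G without the block to 590 with it. In SK-OV-3 the smallest p-values belonged to TAGLN (-1.07, SE 0.29, adjusted p = 0.275), AMH and SMAD3 (0.81, SE 0.25, adjusted p = 0.336), none of which passed. SMAD2, SMAD3, SMAD4 and SMAD5, none called, had log2 differences of 0.18 to 0.81 in SK-OV-3 and -0.01 to 0.27 in TOV-21G. SMAD1, the other tested SMAD gene of the wider list, was not called either and lay below both ranges. Its log2 difference was 0.02 in SK-OV-3 and a fitted -0.15 in TOV-21G, where it was detected on neither silenced array. TCF3 and TCF12, E proteins that ID proteins bind, did not pass, with TCF3 at 0.36 in SK-OV-3 and 0.02 in TOV-21G, and TCF12 at -0.18 and 0.08. The median change of the wider list was 0.02 in SK-OV-3 and 0.01 in TOV-21G, where all genes had medians of -0.01 and 0.00.

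In the difference between the lines 0 of 34 passed. The smallest p-values belonged to TAGLN, ATOH8 and FSTL3. ATOH8 lay at 5.84 and 5.35, below detection, in SK-OV-3 control and at 7.70 and 7.02 in SK-OV-3 silenced arrays, and at 9.95 and 8.42 in TOV-21G control and 9.08 and 7.58 in TOV-21G silenced arrays. Its SK-OV-3 change is known only as at least 1.60-fold higher after silencing (limma adjusted p = 0.391), and its TOV-21G change was -0.86 (SE 0.61, adjusted p = 0.497), so no size is given for their difference (adjusted p = 0.355, and 0.117 to 0.651 over the alternatives). TAGLN (1.43, SE 0.40, adjusted p = 0.293) and FSTL3 (1.32, SE 0.46, adjusted p = 0.392) differed in the other direction without passing. By its probe values ATOH8, like ID3, was higher in silenced than in control arrays of SK-OV-3, but its silenced and control arrays overlapped in TOV-21G.

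**Figure D4:**
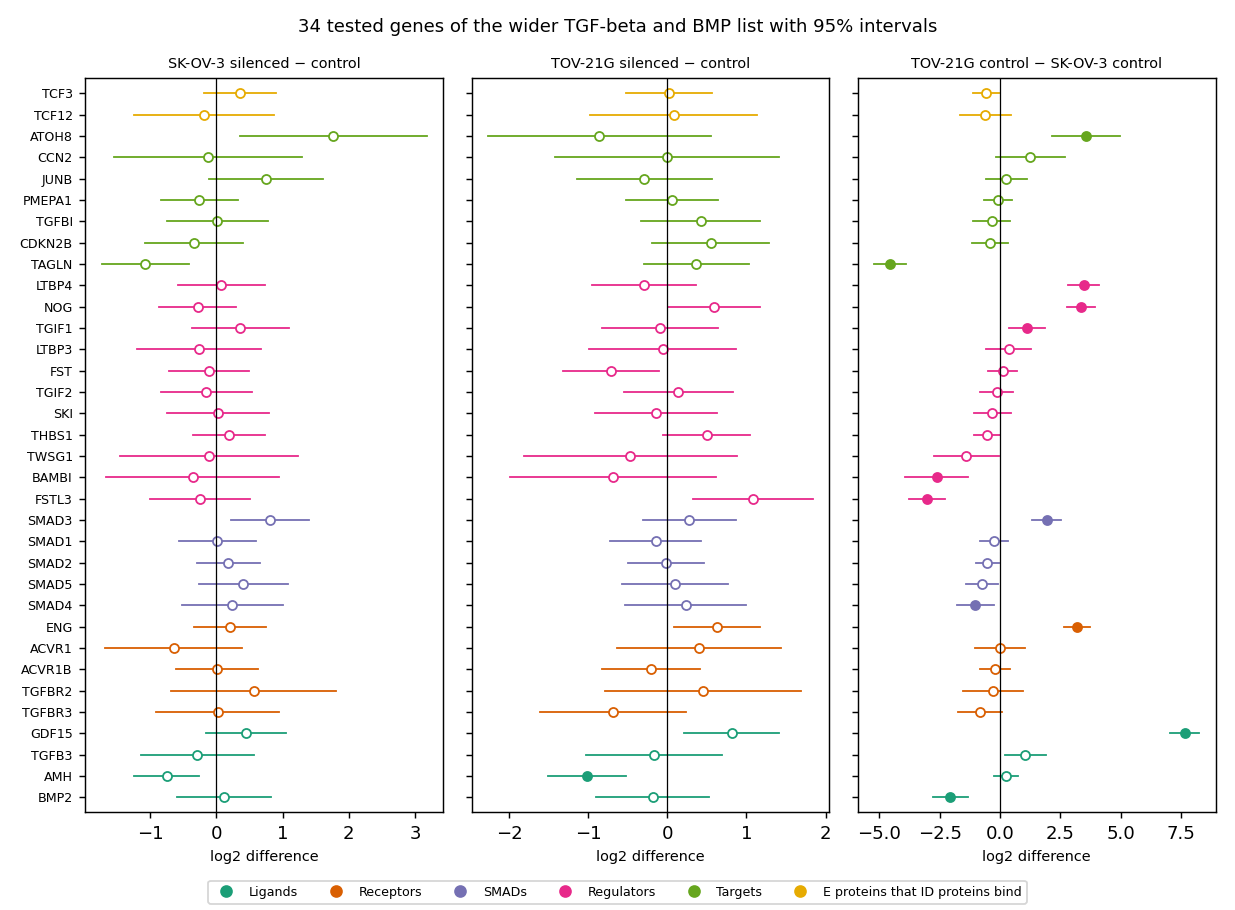
Log2 differences (points) with 95% intervals (lines) of the 34 tested genes of the wider list, grouped and coloured by role, for silencing in SK-OV-3, silencing in TOV-21G and the control lines, filled where the adjusted p was below 0.05. The 12 filled points of the line comparison range from TAGLN at -4.54 to GDF15 at a fitted 7.66 that is measured only as at least 120-fold, and AMH is the 1 filled point of the silencing panels; the horizontal scales of the panels differ.

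No member passed in a silencing comparison, so the genes most like a member were sought for ID1, the tested member with the highest mean log2 intensity. After each line's mean was subtracted, LILRB1 (Pearson r = 0.98), PWP1 (0.97) and IL10 (0.96) followed ID1 most closely over the 8 arrays. LILRB1, PWP1 and IL10 were picked as the highest among the named genes tested, 8373 with ID1 counted. Their r values describe arrays that share 2 lines and 1 normalization, and carry no test.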

How the data were processed

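RNA from 8 samples was measured on Illumina bead arrays. The authors deposited non-normalized signal intensity with a detection p-value per probe, per the file headers, made with BeadStudio 2 per the submitters' processing notes. The values show no subtracted background. A further deposited table holds intensity that the authors normalized. How they did so is not given in the sources used here. Probes were named by the platform annotation, updated through gene IDs: 21838 carried 1 symbol and 2693 none. Background was removed by normexp, with its mean and spread inferred from detection p-values and an offset of 16, before quantile normalization and log2. Probes with a detection p below 0.01 on at least 2 arrays were kept, 10888 in all, and each gene was given by its kept probe with the highest mean. limma 3.58.1 in R 4.3.3 fitted 4 group means to all 8 arrays (4 residual and 3.87 prior degrees of freedom). Adjusted p-values are limma's after Benjamini-Hochberg, over 9377 genes and unnamed probes, at a threshold of 0.05. All probes were also fitted as themselves. The steps were tested on simulated data. Figures used matplotlib 3.10.9 in Python 3.11.15.

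The members, the wider list, its markers and the tests were chosen with earlier results of these data known. The text names all members, CSE1L, up to 6 wider genes called in each direction of a comparison or the 3 with the smallest p where none was, and the genes most like a member; other wider genes named were chosen after their values were seen. The labels number experiments 1 and 2 in each line. Same-numbered deviations correlated at 0.126 (SK-OV-3 arrays), 0.561 (TOV-21G arrays) and -0.236 (across lines). For the silencing comparisons the replicate block paired arrays within each line. For the comparison of the control lines it was an experiment term shared by both lines, despite the correlation of -0.236. The alternatives were that block, each array left out, only the 4 arrays of a comparison, median scaling, no background correction, an offset of 50, the authors' values, no filter and all probes. No slide was given, so no slide block was run. The number of arrays limits the precision.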

Additional observations from a re-analysis of the deposited data

Results flagged for a closer look

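For ID3 all silenced arrays lay above the controls in SK-OV-3 and below them in TOV-21G. Taken as TOV-21G less SK-OV-3, the changes differed by -1.25 on the log2 scale, which limma tested and did not call (unadjusted p = 0.00532, adjusted p = 0.256). This order was found in 2.74% of all 9377 genes. TAGLN showed the opposite order, found in 3% of all genes, with silenced arrays at 11.88 and 11.55 against controls at 13.16 and 12.40 in SK-OV-3, and at 8.70 and 8.51 against 8.30 and 8.17 in TOV-21G. Its difference of 1.43 was not called either (unadjusted p = 0.00769, adjusted p = 0.293).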

How the results depend on the processing

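In the 4 silencing comparisons the count of called members stayed at 0 under all alternatives run. Between the control lines it was 2, 1 to 2 with 1 array left out, and 3 with all probes or the authors' values. The third member was BMP4, with all probes by the probe that passed the filter only through the TOV-21G control arrays. Over all genes 3166 of 9377 were called in the main run and 3015 of 9377 on the authors' values. With all probes 3585 of 10888 probes were called. With no filter the 2 members called were ID3 and TGFB1, the latter below detection in both lines. The wider list's count of 1 in TOV-21G became 3 with the replicate block, 0 with only that line's 4 arrays, median scaling, the authors' values, no filter or all probes, and 0 to 0 with 1 array left out. Its count of 1 in the mean became 0 on the authors' values and 0 to 0 with 1 array left out. With no background correction the 1 wider gene called in TOV-21G was GDF15 (0.80, adjusted p = 0.0497). The block changed no other count of members or wider genes by over 1.5 times, and of single genes it also ended the SMAD4 call. Over all genes it raised the TOV-21G calls from 297 to 590. Of 312 values of the tested members under alternatives, 297 kept their direction and side of the threshold and 9 changed direction, none of them past the threshold. With 1 array left out, BMP4 ranged from -1.14 to 0.31 in SK-OV-3, from -0.92 to 0.54 in the difference, from -0.87 to -0.14 in the mean and from 0.50 to 1.73 between the control lines. SMAD6 ranged from -0.52 to -0.12 in the mean, and ID3 from -0.63 to -0.30 in TOV-21G and from 0.07 to 0.24 in the mean. For ID1 the SK-OV-3 range was -0.22 to 0.0657, the TOV-21G range -0.66 to 0.0014, that of the difference -0.58 to 0.0784 and that of the control lines -0.40 to 0.0714. On the authors' values ID1 was at 0.0019 in SK-OV-3. The cause was not tested. Median scaling put the median of all genes at -0.15 in SK-OV-3 and -0.11 in the mean, from -0.01 in each. CSE1L lost its TOV-21G call with only that line's 4 arrays (adjusted p = 0.0886). Signals near the negative control beads limit ID2, ID4, SMAD7, TGFB1 and TGFB2, for which no change could be measured.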
